A study of Rattus rattus with 10 samples.

Results

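Gamendazole is an indazole carboxylic acid derived from lonidamine and studied as a male contraceptive, and its effect on the transcripts of the whole testis was measured here at 3 hours after a single dose. The arrays were chosen by their titles: 3 gamendazole arrays and 3 vehicle arrays, 1 of each at 4, 12 and 24 h, out of 10 arrays in all. The gamendazole group consisted of male Long-Evans rats, 60 days old, that received 1 intraperitoneal dose of 6 mg/kg gamendazole. The vehicle group consisted of rats of the same strain, sex and age that received buffered DMSO. No genetic alteration is named for either group, and the labels leave unstated the number of animals per array and any pooling of RNA. The labels name the organism as Rattus rattus, while Long-Evans rats belong to the laboratory species Rattus norvegicus.

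In the seminiferous tubule, developing sperm cells are held and fed by Sertoli cells through actin-based junctions, and gamendazole is known to loosen the hold on spermatids so that immature sperm cells are shed. Leydig cells lie between the tubules, carry the receptor for luteinising hormone and turn cholesterol into testosterone. Tissue macrophages lie beside them, and Sertoli cells themselves make interleukin 1 and other cytokines. The heat shock protein HSP90 and the elongation factor eEF1A are described as protein targets of gamendazole.

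The tissue was recognisably testis on every array. The summed signal of 23 transcripts of elongating spermatids lay between 472356 and 530269 on the gamendazole arrays and between 543316 and 566521 on the vehicle arrays, and 0 of the 23 lay at the floor on all 3 arrays of either group. Over log2 signals, each gamendazole array correlated with the vehicle array of its hour at 0.9747 (4 h), 0.964 (12 h) and 0.9648 (24 h), against 0.978 to 0.9811 among vehicle arrays. Beta-actin probe sets gave 3'/5' ratios of 1.851 to 1.998 over the 10 arrays. The instrument records placed the arrays in 3 fluidics (wash) runs, in which gamendazole 4 h was processed with the 12 h arrays and vehicle 4 h in another run, while both arrays of 12 h and both arrays of 24 h shared a run. Each group had 1 array at an hour, so the hours stand in for replicates. The hour is a factor of the fit, so p-values measure how far treatment differences varied from hour to hour. That variation may be partly technical, and the spread between animals of the same hour was not measured.

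Most of the transcripts that passed the averaged test rose with gamendazole. Of 17549 probe sets tested, 693 (3.95%) differed between gamendazole and vehicle over the 3 hours (limma, adjusted p under 0.05), of which 610 (3.48%) were higher and 83 (0.473%) were lower with gamendazole. With each gene represented by its brightest probe set, 395 of 10510 genes (3.76%) rose and 46 (0.438%) fell, 4.2% in all. Of the genes that rose, 223 were at least 2-fold and 64 at least 4-fold higher, whereas 17 of those that fell were at least 2-fold and 2 at least 4-fold lower. All 3 gamendazole arrays lay above all 3 vehicle arrays for 390 of the 395 genes that rose (all probe sets: 11.9%). They lay below them for 45 of the 46 that fell (all probe sets: 12.2%). The genes were picked by their p-values on these same arrays, so this separation follows largely from the choice and is no separate support. Leaving out any 1 of the 6 arrays moved the count of 693 by more than 1.5 times: it was 1162 without gamendazole 4 h (671 higher, 491 lower), 80 without gamendazole 12 h, 251 without gamendazole 24 h, 1176 without vehicle 4 h (910 higher, 266 lower), 67 without vehicle 12 h and 124 without vehicle 24 h. With the fluidics run in place of the hour as a block it was 205 (1.2% of genes higher and 0.133% lower). Every one of the 441 genes kept its direction in that fit, which reuses the same arrays. The main fit also held the 3 lonidamine arrays of these hours, which share its estimate of the spread. With the 6 gamendazole and vehicle arrays alone, 496 probe sets passed (465 higher, 31 lower), and 312 of the 441 genes still passed.

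**Figure D1:**
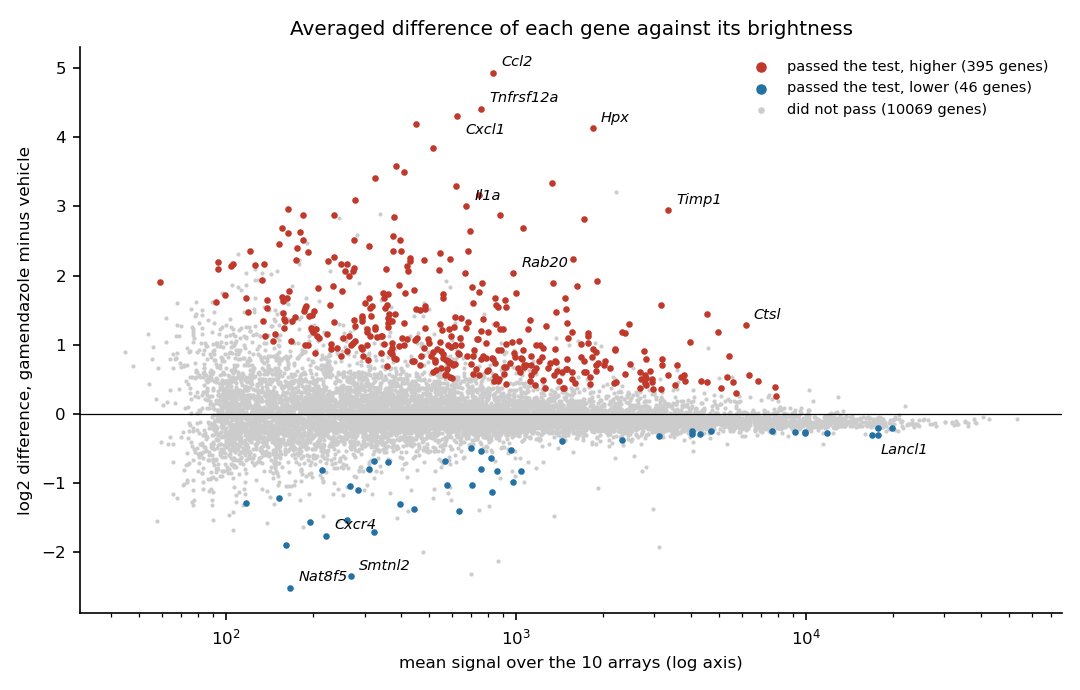
Averaged log2 difference between gamendazole and vehicle (vertical axis) of each of the 10510 genes against its mean signal over the 10 arrays (log axis). The 395 genes that rose had mean signals up to 7896, and the 46 that fell reached 19764, with small differences at that end.

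The chemokines held the largest averaged rise among the genes that passed. Ccl2, which attracts monocytes (probe set 1367973_at), read 381.2, 2656 and 1438 units of signal on the gamendazole arrays of 4, 12 and 24 h, against 5.4, 20.9 and 5.7 on the vehicle arrays. All 3 vehicle values lay under the floor of 37.1, and the averaged rise was at least 30.6-fold (log2 difference 4.93 ± 0.54 SE, adjusted p = 0.00314). Cxcl1, which attracts neutrophils (1387316_at), had 1709, 1016 and 229.2 units with gamendazole, against 2.7, 3.6 and 5.7 with vehicle, at least 19.8-fold higher on average (adjusted p = 0.00345). Both genes lay under the floor on all 3 vehicle arrays, but Ccl2 was highest at 12 h and Cxcl1 at 4 h. Ccl20, a ligand of the receptor Ccr6, rose at least 12.0-fold, and Cxcl11 and Cxcl10, ligands of Cxcr3, rose at least 11.2-fold and 5.15-fold. Cx3cl1, a membrane-bound chemokine, read 407.2, 570.4 and 538.9 units with gamendazole and 123.7, 77.3 and 84.1 with vehicle. In the other direction, Cxcr4, the receptor of Cxcl12, fell to 131.9, 74.6 and 82.9 units with gamendazole, against 278.7, 382.8 and 294.4 with vehicle (3.38-fold lower, adjusted p = 0.017). Of 15 chemokine and receptor genes tested, 6 rose and 1 fell, and their median log2 difference was 1.30, against -0.04 over all tested genes. This list and those below were chosen with earlier results of these data known, so their counts and medians describe the lists and are no test of them.

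**Figure D2:**
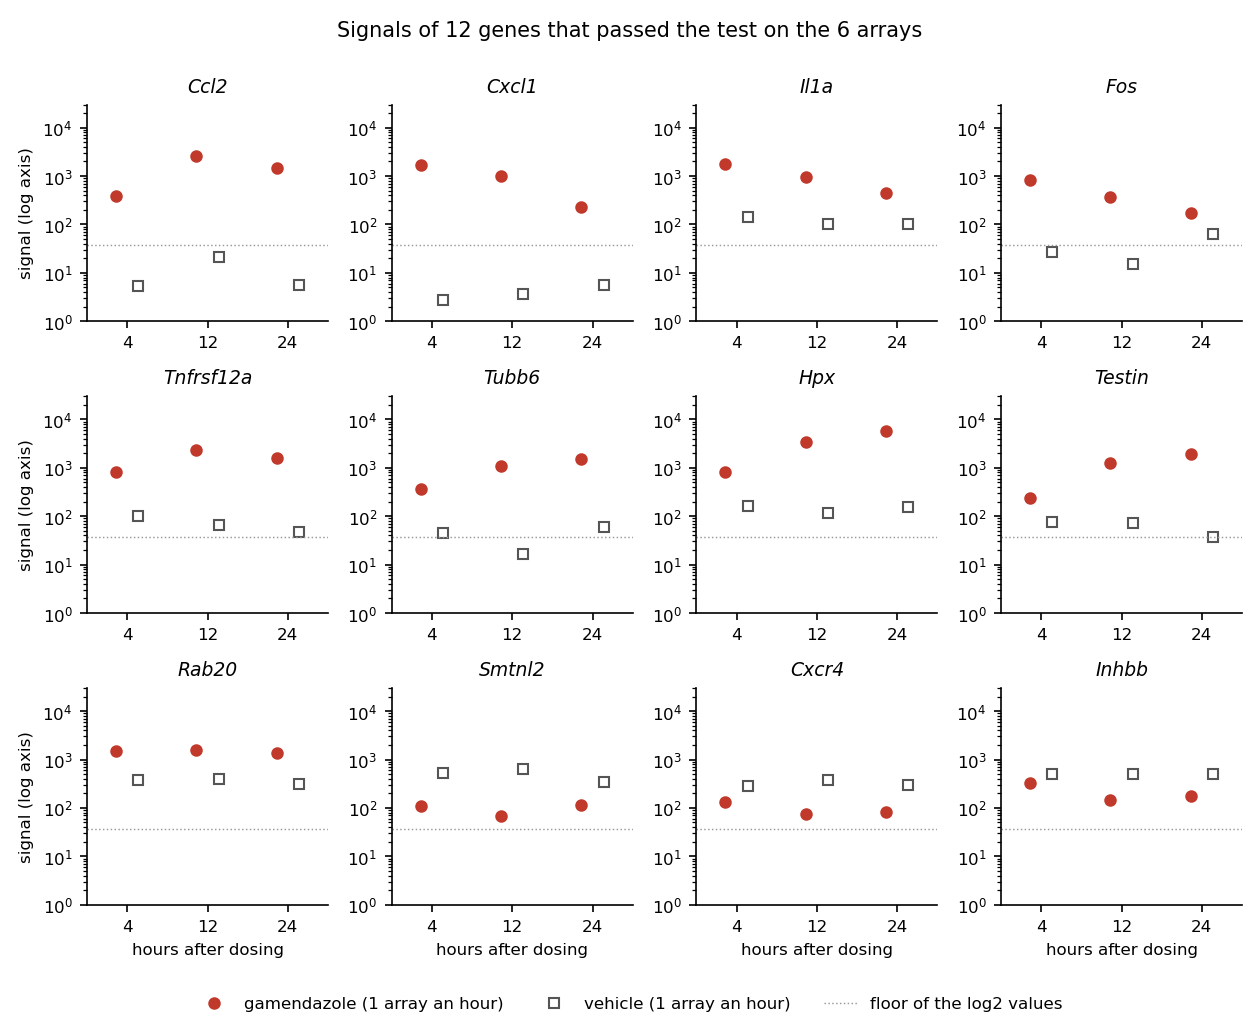
Signal (log axis) of 12 genes that passed the averaged test, on the gamendazole arrays (filled circles) and the vehicle arrays (open squares) of 4, 12 and 24 h; the dotted line is the floor of 37.1. The 3 gamendazole values lie on one side of the 3 vehicle values in every panel.

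Il1a, the gene of interleukin 1 alpha, rose, and so did 7 other genes of the interleukin 1 and NF-kB response. Il1a (1368592_at) had 1741, 976.3 and 444.4 units with gamendazole, against 139.5, 103.8 and 101.0 with vehicle, an 8.02-fold rise (log2 difference 3.00 ± 0.30 SE, adjusted p = 0.00203). The groups did not overlap, and the gamendazole values declined with the hour. Its sister cytokine Il1b did not pass, with 103.1, 167.9 and 49.3 units with gamendazole and 7.5, 59.8 and 60.9 with vehicle (adjusted p = 0.3). The receptor Il1r1 ran the other way in time, with 343.5, 1019 and 862.0 units with gamendazole, against 174.0, 132.0 and 121.3 with vehicle (4.77-fold, adjusted p = 0.0182). Ripk2, a kinase of the innate immune receptors of the NOD type, rose 9.81-fold, and Nfkbiz, an inducible nuclear partner of NF-kB, rose 7.34-fold. The list of 27 tested genes of this response had 8 that rose and 0 that fell, the others being Icam1, an adhesion molecule for leukocytes, Nfkb1, a subunit of NF-kB, and Tnfaip3 and Tnip1, which restrain the pathway. Nfkbia and Rela, which encode an inhibitor and a subunit of NF-kB, did not pass (adjusted p = 0.0599 and 0.277). The list's median log2 difference was 0.25 at 4 h, 1.46 at 12 h and 0.71 at 24 h.

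The immediate early class holds genes, most of them of transcription factors, that answer a stimulus rapidly and without new protein synthesis. Of 27 members tested, 12 rose and 0 fell. Fos (1375043_at) read 845.5, 363.3 and 173.9 units with gamendazole, against 27.4, 15.1 and 63.1 with vehicle, at least 8.50-fold higher on average (adjusted p = 0.0132). Egr1 read 1715, 969.5 and 449.6 units with gamendazole, against 157.1, 144.3 and 136.9 with vehicle (6.22-fold, adjusted p = 0.00581). Both declined with the hour and were still above every vehicle value at 24 h. Atf3, a stress-induced factor, had its lowest value at 4 h instead, with 142.2, 426.9 and 341.0 units with gamendazole, against 46.9, 48.1 and 38.7 with vehicle (6.19-fold, adjusted p = 0.0146). The genes that rose also included Ier3 (9.02-fold), which encodes no transcription factor, and Egr2, Jun, Junb, Jund, Cebpb, Cebpd, Klf6 and Irf1. Egr4 did not pass, with 240.4, 60.1 and 20.1 units with gamendazole and 86.0, 107.8 and 110.6 with vehicle (adjusted p = 0.783). The class had its highest median log2 difference at 4 h (1.41), then 1.22 at 12 h and 0.83 at 24 h. Genes that switch off growth factor signals or degrade induced messages rose beside them, 10 of 19 tested and 0 fell. Among these, the stress protein gene Gadd45b rose at least 7.76-fold, the phosphatase gene Dusp5 at least 4.67-fold, and Zfp36, whose protein promotes decay of cytokine messages, rose 4.24-fold.

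Of 16 tested genes of the acute phase and of interleukin 6 signalling, 6 rose, with their largest difference at 12 h for 4 and at 24 h for 2. Hpx, the haem-binding protein haemopexin (1370065_at), read 810.4, 3350 and 5796 units with gamendazole, against 162.8, 116.1 and 153.9 with vehicle (17.6-fold, log2 difference 4.13 ± 0.58 SE, adjusted p = 0.00667). Stat3, the transcription factor of the interleukin 6 family, read 399.3, 1091 and 1409 units with gamendazole, against 330.6, 197.7 and 241.4 with vehicle (3.39-fold, adjusted p = 0.0439). Its 4 h value stood 0.27 above vehicle on the log2 scale, and its 24 h value 2.55. The receptor chain Il6r rose 5.70-fold, and Il6st, Jak1 and Jak2 were the others that rose. Of 24 tested interferon response genes, 4 rose (16.7%, against 4.2% of all tested genes). These included the GTPase gene Gbp2 (10.1-fold) and the factor Irf1 (2.83-fold). With the fluidics run in place of the hour, 1 of the 16 acute phase genes and 0 of the 24 interferon genes passed. In the TNF receptor family, 3 of 10 rose: Tnfrsf12a, Tnfrsf21 and Tnfrsf1a, the receptor of TNF itself. Tnfrsf12a, the receptor of the cytokine TWEAK (1371785_at), had 807.1, 2292 and 1622 units with gamendazole, against 100.6, 65.4 and 47.3 with vehicle, 21.3-fold higher on average (adjusted p = 0.00573).

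Few markers of leukocytes and 1 of red cells passed the test, and the part of these cells in the immune transcripts was not tested. Of 33 leukocyte genes on the array, 25 were tested, and 2 rose and 0 fell (8.0%, against 4.2% of all tested genes). They were C1qa, a complement gene of macrophages, 1.83-fold higher, and S100a9, of neutrophils and monocytes, at least 4.41-fold higher. With the fluidics run in place of the hour 0 of the 25 passed. The list's median log2 difference was 0.02, 0.54 and 0.72 at the 3 hours. Of the 25 genes, 14, 18 and 23 were above vehicle at these hours (all tested genes: 4899, 4704 and 4957 of 10510). At least 2-fold higher were 1, 3 and 11 of the 25 (all tested genes: 308, 643 and 678). At least 2-fold lower were 0 at every hour (all tested genes: 177, 303 and 256). The summed leukocyte signal was 16657, 20016 and 21524 at 4, 12 and 24 h with gamendazole, against 17132, 16385 and 15941 with vehicle. Hbb, a globin gene of red cells, read 3730, 5549 and 8047 units with gamendazole, against 3194, 1986 and 3024 with vehicle (2.06-fold, adjusted p = 0.0242). It was the 1 of 5 tested red cell genes that passed, and the list's median log2 difference was -0.22. Alas2, the haem synthesis enzyme of red cells, had 1036, 827.4 and 616.1 units with gamendazole and 900.6, 1003 and 918.6 with vehicle (adjusted p = 0.458). The B cell marker Cd79b lay at the floor on all 6 arrays. S100a8, the partner of S100a9, lay there on all 3 vehicle arrays but not on all 3 gamendazole arrays. The neutrophil and monocyte integrin gene Itgam read 4.9, 10.8 and 48.6 units with gamendazole and 47.0, 14.7 and 42.9 with vehicle.

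The cytoskeleton and the cell surface changed next to these signals. Tubb6, a beta-tubulin gene (1376100_at), had 358.7, 1081 and 1538 units with gamendazole, against 44.0, 16.3 and 60.6 with vehicle, at least 18.2-fold higher (adjusted p = 0.00135). It stood apart in its list: of 24 tubulin and microtubule genes tested, 4 rose and 1 fell, with a median log2 difference of 0.04. Camsap3, whose protein caps microtubule minus ends, was the one that fell, to 173.0, 56 and 73.0 units with gamendazole, against 231.2, 295.3 and 263.7 with vehicle (2.94-fold lower, adjusted p = 0.0423). Among actin regulators and targets of serum response factor, 16 of 43 tested rose and 1, Fhl1, fell, with a median log2 difference of 0.66. Rnd1, a small GTPase that loosens actin fibres, had 539.4, 1019 and 412.7 units with gamendazole, against 102.2, 133.0 and 88.7 with vehicle (5.73-fold, adjusted p = 0.00523). Vcl and Zyx, proteins of adhesion sites, and Rhob were most different at 4 h, whereas Myh9, Tagln2 and Arpc5, which build contractile and branched actin, were most different at 24 h. Of 10 intermediate filament genes tested, 4 rose: the nestin gene Nes at least 4.6-fold, Krt19 3.37-fold, Lmna 1.51-fold and Vim 1.48-fold. With the fluidics run in place of the hour 0 of these 10 passed.

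Of 30 integrin and focal adhesion genes, 7 rose and 0 fell. Itgb1, the beta chain shared by many integrins, read 2100, 3598 and 3039 units with gamendazole, against 765.5, 636.9 and 876.3 with vehicle (3.77-fold, adjusted p = 0.00819). Itga6, a laminin receptor chain, rose 5.09-fold, and Sdc4, a proteoglycan of focal adhesions, rose 3.00-fold. Of 16 genes of tight and gap junctions tested, 1 rose and 0 fell (6.25%, near the 4.2% of all tested genes): Cldn4, whose 3 vehicle values lay under the floor, at least 3.74-fold. Cldn11, the main claudin of Sertoli cells, read 8000, 7832 and 9026 units with gamendazole and 7016, 7388 and 7376 with vehicle (adjusted p = 0.109). Among cadherins, catenins and nectins, Cdh2, the N-cadherin that joins Sertoli and germ cells, rose 2.71-fold, Ctnnb1 rose 1.31-fold, and Epcam fell 1.31-fold.

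Secreted proteases and their inhibitors included some of the steepest time courses. Testin, a Sertoli cell secretory protein related to the cathepsins (1370457_at), read 242.3, 1263 and 1909 units with gamendazole, against 74.7, 71.9 and 36.4 with vehicle, at least 14.3-fold higher (log2 difference 3.84 ± 0.67 SE, adjusted p = 0.016). Timp1, an inhibitor of matrix metalloproteases, read 1078, 8536 and 8834 units with gamendazole, against 751.6, 406.0 and 583.5 with vehicle (7.70-fold, adjusted p = 0.0372). Neither gene's arrays overlapped between the groups, and both climbed by several-fold after 4 h. Ctsl, the protease cathepsin L, which Sertoli cells secrete, had 6020, 9743 and 11745 units with gamendazole, against 3402, 3752 and 3799 with vehicle (2.42-fold, adjusted p = 0.00345). Plat, the tissue plasminogen activator, rose 4.24-fold and the matrix protease gene Adamts1 at least 5.27-fold. In all, 7 of 32 genes of this list rose and 0 fell, and 3 of 30 matrix genes rose: Lox, Lamc1 and Lama4.

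The genes of the drug's described protein targets that could be tested, Hsp90ab1 and Eef1a1, did not pass. Hsp90aa1, another HSP90 gene, had no probe set with a single symbol and was not tested. Hsp90ab1, the gene of the constitutive HSP90, read 5242, 5890 and 4922 units with gamendazole and 4874, 4697 and 4879 with vehicle (adjusted p = 0.303). Eef1a1 read 20430, 20405 and 19911 units with gamendazole and 20363, 21301 and 21748 with vehicle (adjusted p = 0.46). Of 33 genes of HSP90 and heat shock tested, 2 passed (6.06%, against 4.2% of all tested genes) and both rose, the small heat shock gene Cryab 4.18-fold and Hsph1 1.39-fold, and of 11 genes of translation elongation 0 passed limma's test, with a median log2 difference of -0.06 (0.01 with cyclic loess). Among 22 targets of the oxidant sensor NRF2, 3 rose (13.6%): Srxn1 5.12-fold, Hmox1 2.35-fold and Gstp1 1.58-fold. Of 26 genes of the amino acid response, 4 passed (15.4%): Ppp1r15a (4.62-fold), Atf4 (2.07-fold) and Slc7a1 (2.02-fold) rose, and Phgdh, which opens serine synthesis, fell 1.99-fold. The unfolded protein response had 1 of 24 genes higher (Xbp1, 4.17%), and cholesterol synthesis 1 of 24 (Scap, 4.17%). Glycolysis and lactate transport had 1 of 28 higher (Pgk1) and 1 lower (Tpi1), 7.14% in all.

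Smaller lists gave further single genes. In iron and haem handling 4 of 21 genes rose, among them Slc11a2, an iron transporter, with 856.6, 905.0 and 1284 units with gamendazole, against 523.2, 477.8 and 469.5 with vehicle (2.04-fold, adjusted p = 0.00889). In the list of p53 targets, cell cycle inhibitors and apoptosis 4 of 27 rose and 3 fell. Ccng1, a p53 target, had 681.7, 1419 and 2210 units with gamendazole, against 511.7, 528.5 and 613.6 with vehicle (2.34-fold, adjusted p = 0.0185), while its relative Ccng2 fell 1.78-fold. The survival gene Mcl1 rose 1.88-fold, and Bcl2l11, which promotes cell death, rose 2-fold. Of 17 clock genes 2 rose (11.8%, against 4.2% of all tested genes): Nfil3 at least 6.09-fold and Bhlhe40 5.08-fold. Of 14 glucocorticoid targets 4 rose (28.6%): Dusp1, Angptl4, Cdkn1a and Hsd11b1. Of the 14, 8 had a positive difference (all tested genes: 4522 of 10510). Of 11 growth factor genes 2 rose (18.2%), Vegfa 2.56-fold and the receptor gene Egfr at least 3.06-fold. With the fluidics run in place of the hour 1 of the 14 and 0 of the 11 passed. Pla2g4a, which releases arachidonic acid for prostaglandins, rose 2.52-fold.

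In the averaged fit, the genes that fell were fewer and less changed than those that rose. Without the 4 h arrays the counts were closer, with 458 genes lower and 673 higher. Smtnl2, a smoothelin-like gene, had 111.5, 67.6 and 113.3 units with gamendazole, against 515.8, 628.9 and 344.0 with vehicle (5.07-fold lower, log2 difference -2.34 ± 0.28 SE, adjusted p = 0.00393). Nat8f5, of the N-acetyltransferase family, had 103.4, 24.3 and 2.5 units with gamendazole, against 252.5, 276.8 and 379.5 with vehicle, at least 5.71-fold lower (adjusted p = 0.0151). Both were well separated from vehicle, and Nat8f5 was under the floor from 12 h on. A pair of genes of cyclic GMP signalling fell: Pde9a, which degrades cyclic GMP, at least 3.70-fold, and Gucy1a1, a subunit of the cyclase that makes it, 2.14-fold. Inhbb, the inhibin beta B subunit made by Sertoli cells (1377163_at), had 320.7, 149.1 and 173.9 units with gamendazole, against 499.0, 510.3 and 492.2 with vehicle (2.47-fold lower, adjusted p = 0.0119). The gene of the inhibin alpha subunit, Inha, had 1575, 1353 and 1173 units with gamendazole and 980.6, 943.6 and 1098 with vehicle (adjusted p = 0.0963). Fst, whose product binds activin, rose 2.82-fold, and Tgfb3, a growth factor known to open the blood-testis barrier, rose 2.03-fold. Cdkn1b, the cell cycle inhibitor p27, fell 2.64-fold, Paqr7, a membrane progestin receptor, 2.58-fold, and Dmrt1, a transcription factor of Sertoli cells and spermatogonia, 1.73-fold. Of the 15 genes with the largest falls, 2 passed with the fluidics run in place of the hour and 0 without the 12 h arrays, against 10 and 0 of the 15 with the largest rises.

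The number of genes at a distance from vehicle grew after 4 h. At 4 h, 913 of 16475 probe sets (5.54%) differed from the vehicle array by 2-fold or more, 495 higher and 418 lower. At 12 h there were 1641 of 16974 (9.67%), 1108 higher and 533 lower, and at 24 h 1735 of 16977 (10.2%), 1241 higher and 494 lower. Pairs of vehicle arrays gave 510 to 658, fewer than any of the 3 hours. Among the 395 genes that rose, the largest difference was at 4 h for 78, at 12 h for 179 and at 24 h for 138. Their median log2 differences were 0.82, 1.21 and 1.11 at the 3 hours.

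Among the genes that passed, the courses over time differed. Cxcl1, Fos, Zfp36 and Ier3 declined most steeply among the genes that rose: the log2 difference of Cxcl1 was at least 5.53 at 4 h, 4.78 at 12 h and 2.63 at 24 h. Hpx, Testin, Wnt4, Timp1, Myof and Calcb climbed most steeply: Wnt4, a secreted signal with all vehicle values under the floor, had a difference of at least 0.98, 4.76 and 4.48. Another set held its difference within narrow limits, among them Dtx3l, a ubiquitin ligase gene, with a log2 difference of 1.62, 1.62 and 1.61, and Rab20. Rab20, a small GTPase of membrane traffic, read 1492, 1587 and 1350 units with gamendazole and 373.3, 389.6 and 316.0 with vehicle. Its log2 difference was 2.0, 2.03 and 2.09, and its averaged rise of 4.11-fold had the adjusted p of 0.00042. Jun (1.52, 1.65 and 1.52) and the regulator of G protein signals Rgs2 (1.12, 1.01 and 1.0) behaved in the same steady way. In limma's test for a steady change of the difference with log2 hour, 0 of 17549 probe sets passed, 2072 had an unadjusted p under 0.05, and the smallest adjusted p was 0.0618, so the time courses are given as values. That count was not stable: it was 236 without gamendazole 24 h, 157 without gamendazole 12 h, 76 without vehicle 12 h, and 4 without either 4 h array.

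**Figure D3:**
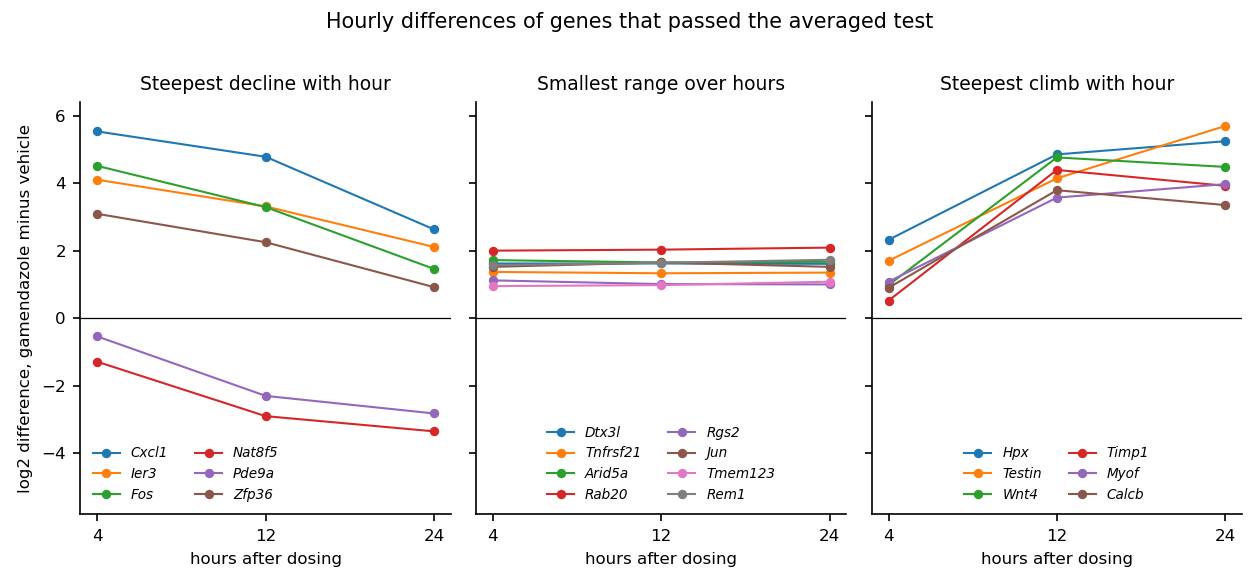
Log2 difference between gamendazole and vehicle at 4, 12 and 24 h for the 6 genes with the steepest decline, the 8 with the smallest range and the 6 with the steepest climb among those that passed the averaged test. Cxcl1 goes down to 2.63 and Testin up to 5.69 by 24 h, while Rab20 stays near 2.

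Genes of steroid synthesis swung widely over the hours, and most of them did not pass the averaged test. Cyp17a1, the enzyme that turns progestins into androgens in Leydig cells (1387123_at), read 1739, 393.2 and 5.8 units with gamendazole, against 1314, 1276 and 1269 with vehicle. At 24 h its signal was under the floor and at least 34.2-fold below vehicle. Cyp11a1, which cleaves the side chain of cholesterol (1368468_at), read 2788, 871.4 and 94.1 units with gamendazole, against 1637, 1598 and 1861 with vehicle, 19.8-fold below vehicle at 24 h. Lhcgr, the receptor of luteinising hormone (1387423_at), read 669.0, 132.2 and 76.5 units with gamendazole, against 496.5, 465.2 and 675.3 with vehicle. For these 3 genes the gamendazole array was the higher one at 4 h and the lower one at 12 and 24 h, and the slopes on log2 hour were -2.05 ± 0.24, -1.88 ± 0.24 and -1.39 ± 0.15 (SE), with adjusted p of 0.0745, 0.0863 and 0.0618. Of 17 tested Leydig genes, 16 were above vehicle at 4 h, 7 at 12 h and 5 at 24 h, and the list's median log2 difference was 0.68, -0.03 and -0.99. Across all tested genes 4899, 4704 and 4957 of 10510 were above vehicle at the 3 hours.

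The steroidogenic genes did not all take that course: Star, Akr1c14 and Hsd11b1 departed from it. Star, which carries cholesterol into mitochondria, read 2290, 1852 and 2289 units with gamendazole, against 1188, 918.9 and 1124 with vehicle, about 1 higher on the log2 scale at every hour (0.95, 1.01 and 1.03; adjusted p of the average 0.081). Akr1c14, which reduces androgens, had 192.5, 239.1 and 781.0 units with gamendazole, against 98.8, 133.5 and 152.6 with vehicle (2.61-fold, adjusted p = 0.0259). Hsd11b1, which interconverts active and inactive glucocorticoid, rose 1.47-fold. Scarb1, Hsd3b1, Hsd17b3 and Insl3 did go from above vehicle at 4 h to below it at 24 h. Of these, Scarb1 and Hsd3b1 were still above vehicle at 12 h. Scarb1, a receptor for cholesterol-rich lipoprotein, had 1174, 650.9 and 231.4 units with gamendazole and 527.6, 423.2 and 373.2 with vehicle. Hsd3b1 had 5929, 2876 and 1294 with gamendazole and 3706, 2522 and 2964 with vehicle. Hsd17b3, which makes testosterone from androstenedione, had 112.2, 52.6 and 18.4 units with gamendazole and 53.3, 151.2 and 118.0 with vehicle (adjusted p = 0.519). Insl3, a peptide hormone of Leydig cells, had 1736, 1253 and 1286 units with gamendazole and 1616, 1398 and 2546 with vehicle. In whole testis, fewer cells of a type and less RNA per cell cannot be told apart.

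**Figure D4:**
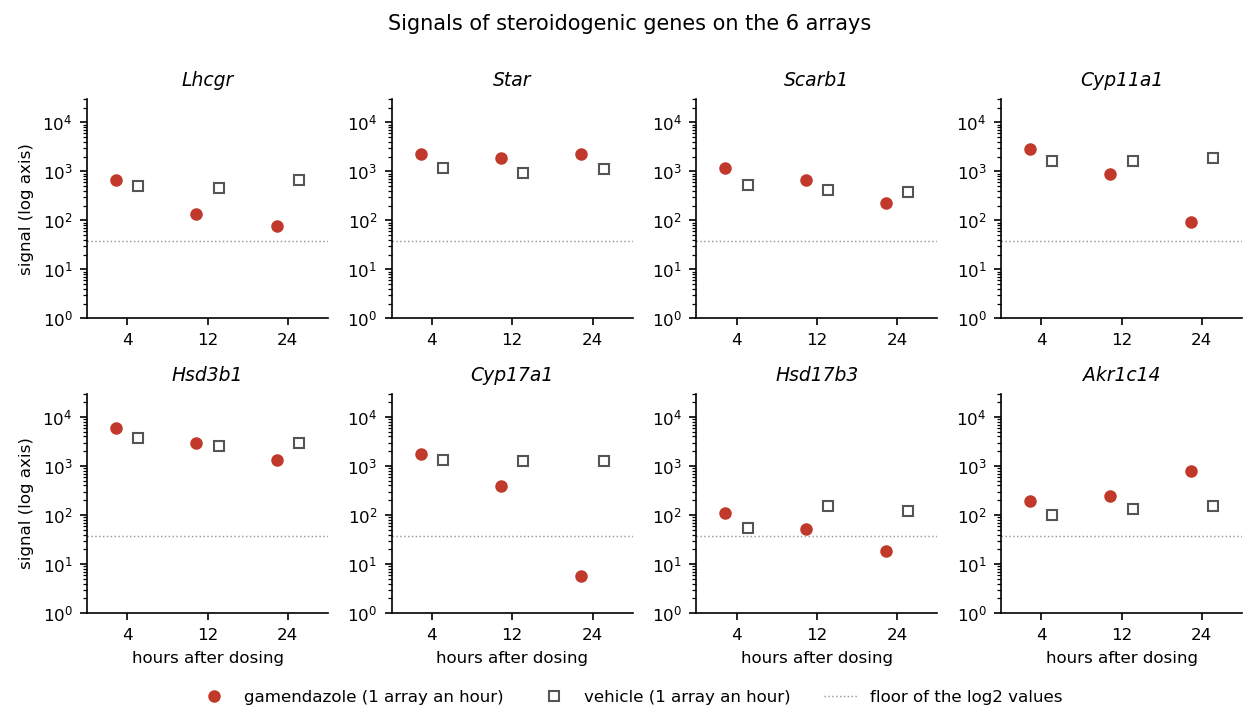
Signal (log axis) of 8 steroidogenic genes on the gamendazole arrays (filled circles) and the vehicle arrays (open squares) of 4, 12 and 24 h; the dotted line is the floor of 37.1. Cyp17a1, Cyp11a1 and Lhcgr start above vehicle and end below it, while Star and Akr1c14 lie above vehicle at all 3 hours.

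The 12 and 24 h arrays, which are free of the mismatch in fluidics run, were also fitted without those of 4 h. In that fit 1045 probe sets (5.95%) were higher and 601 (3.42%) lower, or 673 genes (6.4%) higher and 458 (4.36%) lower, against 395 and 46 with the 4 h arrays included. Of the Leydig list 2 of 17 genes rose, Akr1c14 and Hsd11b1, and 6 fell: Cyp17a1 at least 10.5-fold (adjusted p = 0.0174), Cyp11a1 6.02-fold, Lhcgr 5.57-fold (adjusted p = 0.00395), Prlr 5.07-fold, Nr0b1 4.11-fold and Nr5a1 2.61-fold. Nr5a1 and Nr0b1 encode nuclear receptors that govern steroidogenic genes, and Prlr encodes the prolactin receptor. Of 18 Sertoli genes 6 fell and 2 rose, including Gja1, the gap junction protein connexin 43, with 3770, 1370 and 1095 units at the 3 hours with gamendazole and 2977, 3142 and 3359 with vehicle (2.65-fold lower over 12 and 24 h, adjusted p = 0.00853). Espn, an actin-bundling protein of the junctions between Sertoli cells and spermatids, had 1143, 882.4 and 411.9 units with gamendazole and 1172, 1203 and 1118 with vehicle (1.92-fold lower over 12 and 24 h, adjusted p = 0.0303). Of the IL-1 and NF-kB list 14 of 27 rose in this fit, and of the acute phase list 11 of 16, among them Serpina3n at least 19.8-fold (adjusted p = 0.0023). Of the leukocyte list 7 of 25 rose.

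**Figure D5:**
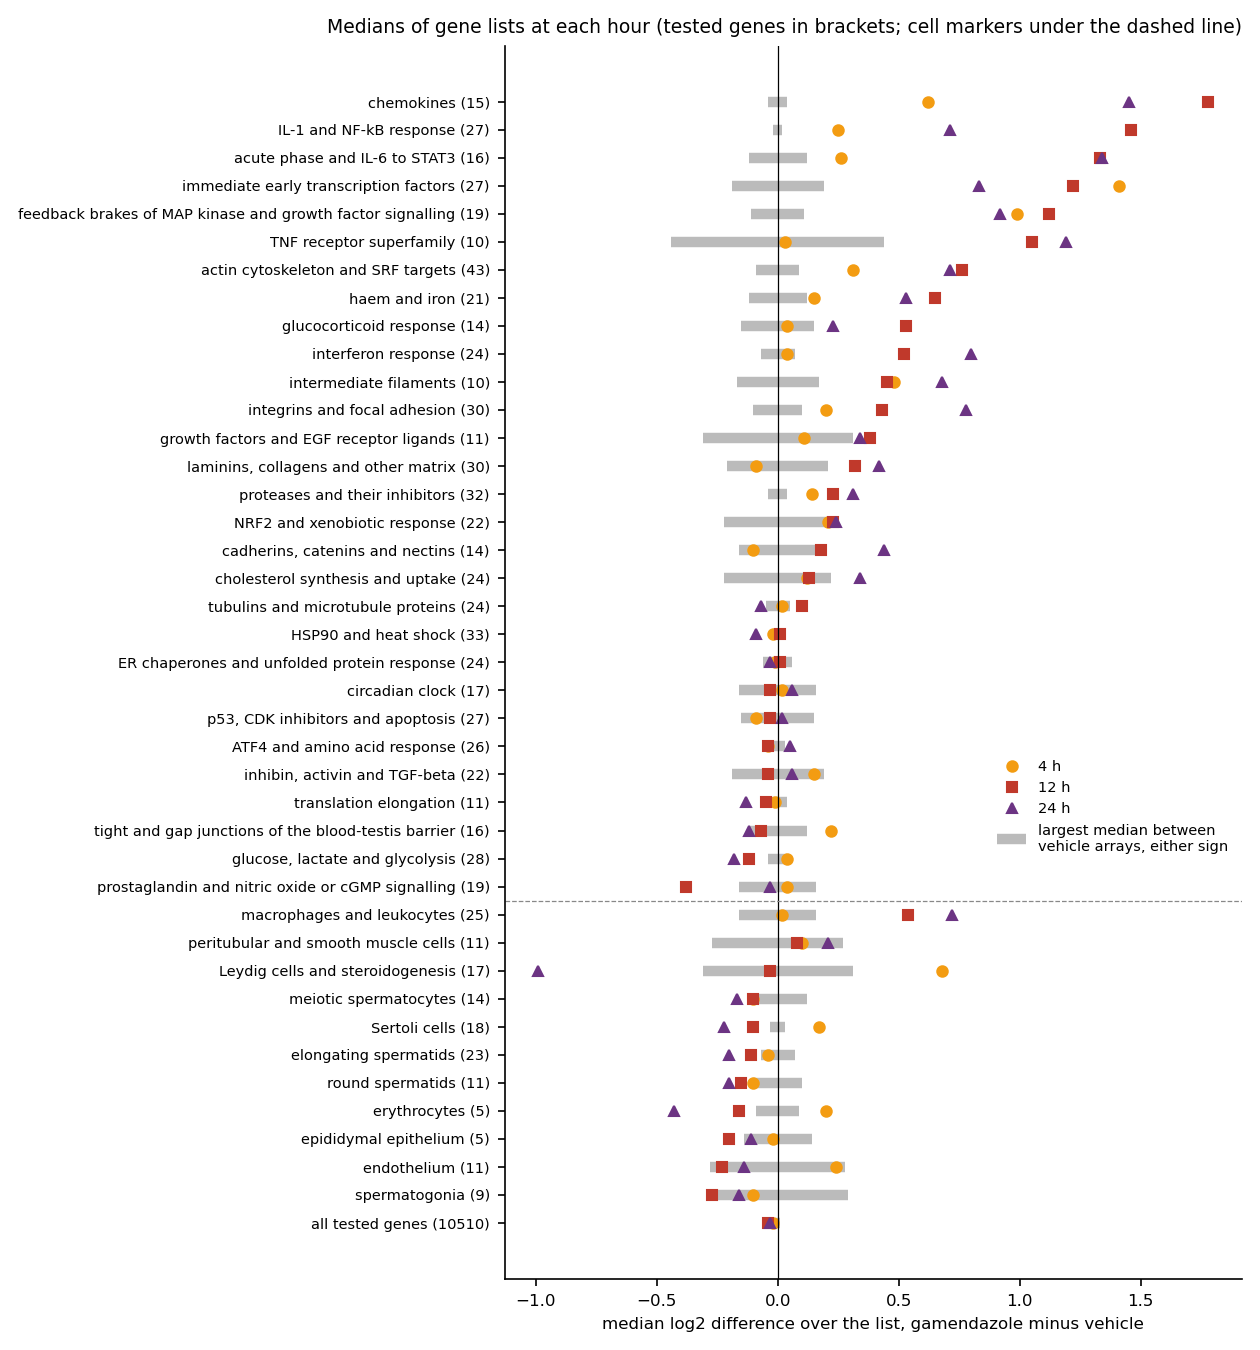
Median log2 difference between gamendazole and vehicle of each gene list at 4 h (circles), 12 h (squares) and 24 h (triangles); grey bars span the largest median between vehicle arrays in either sign, and the last line gives all 10510 tested genes. Chemokines reach 1.78 at 12 h, and the Leydig list runs from 0.68 at 4 h to -0.99 at 24 h.

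Germ cell transcripts showed small differences whose size depended on the normalization, as did the sign of the median for elongating spermatid genes. In the averaged fit 0 of 14 meiotic, 0 of 11 round spermatid and 0 of 23 elongating spermatid genes passed limma's test, with median log2 differences of -0.16, -0.12 and -0.13. With cyclic loess these medians were -0.03, -0.04 and 0.02, and with quantile normalization -0.05, -0.05 and -0.02. In the averaged fit 3512 of all 17549 probe sets had an unadjusted p under 0.05. Of the 14 meiotic genes 0 had a positive difference, of the 11 round spermatid genes 1 and of the 23 elongating spermatid genes 2. Over the 12 and 24 h arrays alone, 11 of the 23 elongating spermatid genes fell, by 1.11-fold for Gapdhs, a glycolytic enzyme of the sperm tail, to 1.41-fold for Fscn3, an actin-bundling protein of the sperm head. The 8 brightest genes that passed the averaged test all fell as well, for example Lancl1 with 16419, 15210 and 14585 units with gamendazole and 18008, 20137 and 19110 with vehicle (1.24-fold, adjusted p = 0.0184). With quantile normalization 0 of these 8 passed, and with cyclic loess 1 of 8. The fit of the 12 and 24 h arrays alone was not repeated with these other normalizations. The brightest 1755 of all tested probe sets had a median log2 difference of -0.102 (-0.119 at 12 h and -0.143 at 24 h). The dimmest 1755 had one of 0.042 (0.073 at 12 h and 0.154 at 24 h). Between pairs of vehicle arrays the median of the brightest lay between -0.019 and 0.003. Among those brightest probe sets 33 rose and 23 fell. The part of this brightness trend in the germ cell values was not tested.

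Gamendazole and lonidamine, the other drug of the series, were given at 6 mg/kg and 25 mg/kg, so their difference is one between these treatments at these doses. Both were set against the same vehicle arrays. Lonidamine 4 h shared the fluidics run of vehicle 4 h, while gamendazole 4 h lay in another run. At 4 h drug and run therefore cannot be told apart. In limma's contrast of the drugs 0 of 17549 probe sets passed, 776 had an unadjusted p under 0.05 and the smallest adjusted p was 0.722. Inhbb was 1.12 lower on the log2 scale with gamendazole than with lonidamine (gamendazole minus lonidamine -1.12 ± 0.21 SE, adjusted p = 0.722). It read 320.7, 149.1 and 173.9 units with gamendazole and 527.1, 427.8 and 375.0 with lonidamine. Nmu, the neuropeptide neuromedin U, read 456.3, 509.6 and 500.8 units with gamendazole and 79.9, 161.6 and 192.7 with lonidamine (difference 1.85 ± 0.33 SE, adjusted p = 0.722). Cyp17a1 read 1739, 393.2 and 5.8 units with gamendazole and 1006, 433.8 and 69.4 with lonidamine.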

How the data were processed

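RNA of whole testis was hybridised to Affymetrix Rat230_2 arrays, and GCOS 1.1 is the software named by the submitters' processing notes. What the authors deposited is 1 linear intensity (signal) per probe set; by the values, the authors' software scaled every array to a trimmed mean (2% at each end) of 500, which removes differences in total RNA. The summary algorithm and genome build are not given in the sources used here, and no detection calls, sequences or coordinates were used.

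From 31099 probe sets, 57 controls were left out. Values under the pooled 25th percentile (37.1 units) were set to it, since values there have no order, and log2 was taken; a fold or log2 difference whose lower side includes such a value is given as at least that large. The 17549 probe sets tested reached the pooled median (116.2) on at least 2 arrays. Symbols came from GEO's platform annotation (20826 probe sets with 1 symbol, 436 with several, 9780 not listed), and a gene with several probe sets is represented by the brightest. Probe sets of type _s_at and _x_at (Hbb, Cxcr4, Smtnl2, Jun and Eef1a1 here) can share probes with related transcripts. Of 2681 genes with several tested probe sets, 189 had any that passed. Of these 189, 37 had all that passed, 0 had calls in both directions, and 165 had all probe sets of one sign.

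The main model, in limma 3.58.1 (R 4.3.3), took the 9 arrays of the 3 hours after dosing, lonidamine included, with treatment and hour as factors (4 residual degrees of freedom), eBayes with a variance trend, and Benjamini-Hochberg adjustment over all tested probe sets at 0.05. The hour is thus the block that pairs gamendazole and vehicle arrays. A second fit added slopes of each drug on log2 hour (2 residual degrees of freedom). Single hours were compared without a test, over probe sets whose brighter array reached the pooled median. The fits were tested on simulated data.

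The members and the 40 gene lists were chosen with earlier results of these data known. Genes named are the 15 largest rises and falls, the 6 highest and lowest slopes, the 8 steadiest, the 8 brightest, up to 4 called genes of each list, the genes that the labels mention, and the 8 lowest p-values for the slope and for the contrast of the drugs. Other list members are named where a list's result is described. Alternatives changed the floor, filter, normalization, variance trend, blocks and arrays. Precision is limited by the number of arrays; 95% intervals of log2 differences reached a median of 0.4 to either side.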

Additional observations from a re-analysis of the deposited data

Results flagged for a closer look

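Lists with the medians of at least 2 of the hours on opposite sides of vehicle, each by more than 0.1 and by more than the largest median between vehicle arrays, are given here; the difference between hours was not tested for a list, and 0 probe sets passed limma's gene-level slope test (2072 at an unadjusted p under 0.05). The Leydig list had medians of 0.68 at 4 h, -0.03 at 12 h and -0.99 at 24 h over 17 genes, with 3 genes at least 2-fold higher at 4 h and 8 at least 2-fold lower at 24 h. The Sertoli list had medians of 0.17, -0.1 and -0.22 at these hours over 18 genes. The erythrocyte list had 0.2, -0.16 and -0.43 over 5 genes, in which Hbb itself ran the other way, with differences of 0.22, 1.48 and 1.41. At 4 h the gamendazole and vehicle arrays lay in different fluidics runs, and the part of the run in the 4 h medians was not tested.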

How the results depend on the processing

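Counts of calls depended on the processing more than directions did. Against 693 probe sets in the averaged comparison, there were 247 with the floor at the 50th percentile, 205 with the fluidics run in place of the hour, 372 without the hour block (the fit that ignores the pairing by hour), 28 without the variance trend and 0 without the filter (4099 at an unadjusted p under 0.05 in limma). Leaving out 1 array or the arrays of 1 hour gave 0 (without the 12 h arrays, 1642 at an unadjusted p under 0.05) to 1646 (without the 4 h arrays). All 441 called genes kept their direction under every alternative of the averaged fit that tested them, and these alternatives reuse the same arrays. The slope on the hour called 2 probe sets with the hour itself in place of log2 hour, and 0 to 236 with 1 array left out. The contrast of the drugs called 0 to 8 with 1 array or hour left out (2 without the 4 h arrays, 8 without gamendazole 4 h). With the brighter array at the 75th percentile, 155, 450 and 490 probe sets were at least 2-fold from vehicle at 4, 12 and 24 h. Of 2723 values of 138 named genes under alternatives, 1172 lost the call, 20 gained it and 0 reversed; of 240 list medians, 30 moved by more than the spread between hours. Counts for lists without the 4 h arrays or with the run as a block were added after seeing the data: with the run, 4 of 27 IL-1 and NF-kB genes, 7 of 27 immediate early, 9 of 19 feedback, 3 of 15 chemokine, 1 of 16 acute phase and 8 of 43 actin genes rose. In that fit 0 genes passed of the interferon (24 tested), intermediate filament (10), cadherin (14), HSP90 (33), leukocyte (25), inhibin and activin (22), growth factor (11), tight junction (16), unfolded protein (24), glycolysis (28), cholesterol (24), prostaglandin and cGMP (19) and Leydig (17) lists, nor of the meiotic, spermatid, peritubular, endothelial, epididymal and elongation lists; all tested genes had 126 higher and 14 lower. Promoter motifs were not run, since no promoter sequences were used here. Dim probe sets are limited by the floor: 28 of the genes that rose had a vehicle array there.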
